A study of Homo sapiens with 11 samples.

Results

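This report describes 9 genes that encode plasma membrane carriers of amino acids, SLC7A5, SLC3A2, SLC7A1, SLC7A6, SLC38A1, SLC38A2, SLC1A3, SLC1A4 and SLC1A5, in RWPE1 cells moved from normoxia to 1% oxygen. They were chosen by name, with no measured value in the rule, though earlier results of these data were known. They are 9 of 60676 genes in the count table. All 9 passed the filter on low counts, which kept 19981 genes. RWPE1 is an immortalized, non-tumorigenic epithelial line from human prostate, grown in keratinocyte serum-free medium with bovine pituitary extract and EGF. Untreated normoxic cells (0 h, 3 libraries) were compared with cells kept at 1% oxygen for 6 h (3 libraries), 12 h (3 libraries) or 24 h (2 libraries), to follow the response of the transcriptome to low oxygen over time. One more 24 h library was not analysed here. The medium of the hypoxic cells also received 10 mM HEPES, so that oxygen and buffer cannot be told apart in any comparison with 0 h. All groups are the same line, and nothing in the labels says whether replicates came from separate cultures, so p-values measure the spread between these libraries.

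Cells cannot make all the amino acids they need for protein synthesis, and those they lack enter through carriers that differ in substrate and in driving force. SLC7A5 and SLC7A6 are exchangers that reach the cell surface only when joined by a disulfide bond to the glycoprotein SLC3A2, whereas the SLC38 and SLC1 carriers use the sodium gradient or exchange small neutral amino acids without such a partner. When amino acids run short, the transcription factor ATF4 raises many of these genes through C/EBP-ATF response elements, and hypoxia-inducible factors and Myc are also known regulators of some of them.

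Total counts were 27496009 to 49488345 reads per library. Levels are given as counts per 1000000 (CPM) after TMM scaling, whose factors ran from 0.539 in 24 h replicate 2 to 1.32 in normoxia. The 24 h pair differed more than any other replicate pair, with a chi-square per degree of freedom of 164 over genes against 2.30 to 42.5 elsewhere. Values of the carriers at 24 h are therefore also given with 1 of these libraries left out where that changes a call or moves the value strongly. Values of other genes at 24 h are given with both libraries only, and some of their calls changed when 1 was left out. The 7 basal epithelial markers tested summed to 12402 to 15807 CPM in normoxia and 19431 to 57008 CPM in hypoxia. KLK3 was at 0 counts in every library, while the luminal keratins were present, and 4 of 6 luminal markers were tested (654 to 765 CPM summed in normoxia and 919.7 to 2800.3 in hypoxia). Stromal, immune and endothelial markers other than COL1A1 (27.7 to 60.5 CPM) and CD14 (up to 3.38 CPM) stayed at or below 13 counts. All 8 hypoxia check genes rose at all 3 times, led by EGLN3 (log2 fold changes 6.23, 6.45 and 6.77), CA9 (3.17, 4.40 and 5.68), ADM (3.09, 4.15 and 4.72) and LDHA (3.16, 3.42 and 3.86). In bulk RNA a change of level per cell and a change in the mix of cells cannot be told apart.

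Adjusted p-values are those of edgeR's quasi-likelihood test after Benjamini-Hochberg adjustment over all genes tested, unless another tool is named. "Called", "rose" and "fell" mean an adjusted p under 0.05, and SE is the standard error of the fitted log2 difference. Against 0 h, 3 of the 9 carriers rose and 3 fell at 6 h, where 25.1% of all genes tested were called higher and 27.7% lower (52.8% either way). At 12 h 3 rose and 4 fell, with 24.2% and 27.1% of all genes (51.2% either way). At 24 h 2 rose and 4 fell, with 29.9% and 31.3% (61.2% either way). Called shares of 6, 7 and 6 of 9 lie near or somewhat above these backgrounds, and the results below therefore concern which carriers moved and by how much. SLC38A2 and SLC1A3 rose at all 3 times, as did 14.8% of all genes. SLC7A5 and SLC1A4 fell at all 3 times, as did 17.9%. With library size alone the carriers split into 2 higher and 6 lower at 12 h and 1 and 7 at 24 h, and the median of all genes was then at -0.50 and -0.97. The libraries did not overlap normoxia for 3 higher and 4 lower carriers at 6 h (33.6% and 36.0% of all genes, 69.6% either way), 3 and 5 at 12 h (34.8% and 37.6%, 72.3% either way) and 3 and 4 at 24 h (33.7% and 39.4%, 73.0% either way). The median log2 fold change of the 9 was -0.16, -0.41 and -0.05 at 6, 12 and 24 h, against -0.0021, -0.033 and -0.065 over all genes tested. The 3 comparisons share the normoxic libraries and are not independent.

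**Figure D1:**
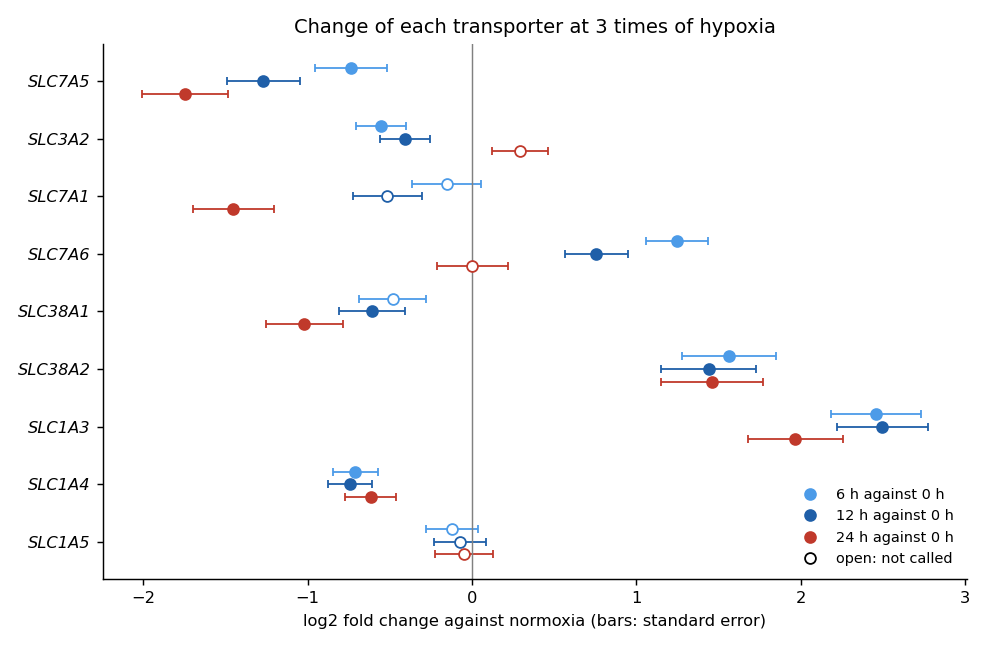
Log2 fold change of each carrier against normoxia (x axis) at 6, 12 and 24 h, with bars of 1 SE. Filled points passed the adjusted threshold and open points did not. SLC1A3, SLC38A2 and SLC7A6 lay to the right at 6 and 12 h, SLC7A5 moved further left with time, and SLC1A5 stayed near 0.

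Before scaling, the carriers took a smaller share of counted reads in hypoxia. In normoxia 0.504% to 0.544% of counted reads fell in them, after 6 h 0.393% to 0.501%, and after 12 h 0.333% to 0.367%. At 24 h the shares were 0.359% in replicate 1 and 0.151% in replicate 2. Every hypoxic library lay below every normoxic library in this unscaled share. After TMM scaling the sum did not separate the groups. It was 3809 to 4230 CPM in normoxia, 3690 to 4871 CPM at 6 h, 3566 to 3713 CPM at 12 h, and 4220 and 2804 CPM at 24 h, so that only the 12 h libraries lay wholly below normoxia. The median log2 fold change of all genes with library size alone was -0.32, -0.50 and -0.97.

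The letters of the C/EBP-ATF response element, searched as TGATGNAA on both strands, were found in at least 1 RefSeq promoter (GRCh38.p14, 250 bases before to 50 after a start) of 6 of the 9 genes, in 6 of their 17 promoter windows. Of all 35116 promoters in the RefSeq table, 3.62% hold these letters. They are shown because they compare carriers that fell, rose and did not move, with 10 bases on either side where the window allows. Capitals mark the match, which is printed on the gene's strand and so appears reversed and complemented where it lies on the other one (SLC3A2 and SLC1A4).
SLC3A2, chr11:62881726-62881748, 37 bases after an alternative start: gcaggactccTTACATCAgctcc
SLC7A1, chr13:29595664-29595691, 7 bases after the start: ggcgcactgcTGATGAAAcctggcgccg
SLC38A1, chr12:46266503-46266530, across an alternative start: cagacccgaaTGATGAAAagggatcagc
SLC1A3, chr5:36596358-36596385, 220 bases before an alternative start: aggaaatgacTGATGCAAagcagggtta
SLC1A4, chr2:64989382-64989409, across the start: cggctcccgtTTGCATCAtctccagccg
SLC1A5, chr19:46784894-46784921, 97 bases before an alternative start: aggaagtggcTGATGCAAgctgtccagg

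In SLC38A2 no promoter window held these letters, and the first intron of its reference (MANE) transcript (chr12:46371380-46372508, minus strand, 1129 bases) held 1 match, 449 bases into the intron. The first intron of this gene is known to carry an amino acid response element.
SLC38A2, chr12:46372043-46372070: acgatcgataTTGCATCAgttttctttc
Of the carriers with a promoter match, SLC1A4, SLC3A2, SLC7A1 and SLC38A1 fell against normoxia at some time, SLC1A3 rose and SLC1A5 was not called. SLC38A2 also rose, but its match lies in an intron, and no share of matches over other introns was computed. Letters are a description and not a bound site.

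SLC7A5 (ENSG00000103257, chr16:87830023-87869507, minus strand) encodes LAT1, the exchanger that brings leucine and other large neutral amino acids into the cell. It stood at 1996, 1707 and 2008 CPM in normoxia and at 919, 1455 and 1048 CPM at 6 h. At 12 h it was at 580, 845 and 942 CPM, and at 24 h at 562 and 573 CPM. The highest hypoxic library was thus below the lowest normoxic one, and both 24 h libraries lay below all those of 6 and 12 h. The log2 fold change against 0 h was -0.74 at 6 h (SE 0.22, adjusted p = 0.0130), -1.27 at 12 h (SE 0.22, adjusted p = 0.000545) and -1.75 at 24 h (SE 0.26, adjusted p = 0.000106). The transcript was at 0.599, 0.415 and 0.298 of its normoxic level. Between 6 and 24 h it fell by a further 1.01 on the log2 scale (SE 0.25, adjusted p = 0.00701), whereas the step from 6 to 12 h (-0.53, adjusted p = 0.186) and that from 12 to 24 h (-0.48, adjusted p = 0.165) did not pass. The 6 to 24 h call was lost in limma-voom with sample quality weights (-1.09, adjusted p = 0.0679). Without 6 h replicate 1 the 6 h call was lost (-0.60, adjusted p = 0.0606). Of its 75-base transcript windows 2.79% are identical in the pseudogene SLC7A5P2, which had 0 counts in every library, and 5.69% of its exonic bases overlap the antisense gene ENSG00000260466 with 0 to 19 counts.

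The SLC7A5 promoter is printed because it holds both sets of letters tied to low oxygen and to Myc. ACGTG and GCGTG are the core of the hypoxia response element, and CACGTG is the E-box bound by Myc, which also contains ACGTG. Capitals mark the matches to any of these on either strand, in the 250 bases before the start at chr16:87869508-87869757.
SLC7A5: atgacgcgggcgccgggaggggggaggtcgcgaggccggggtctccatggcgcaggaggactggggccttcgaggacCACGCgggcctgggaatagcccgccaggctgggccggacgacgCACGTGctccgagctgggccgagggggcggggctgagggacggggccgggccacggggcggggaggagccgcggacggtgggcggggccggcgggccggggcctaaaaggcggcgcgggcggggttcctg
The E-box letters begin 130 bases before the start and a GCGTG on the other strand begins 173 bases before it. Of all promoter windows, from 250 bases before to 50 after a start, 21.4% hold ACGTG, 36.5% GCGTG and 7.26% CACGTG. Of the carriers' 17 windows 6 held ACGTG, 11 held GCGTG and 2 (SLC7A5 and an alternative start of SLC1A5) held CACGTG.

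SLC3A2 (ENSG00000168003, chr11:62856004-62888880, plus strand) encodes the CD98 heavy chain, the shared partner of SLC7A5 and SLC7A6. Its normoxic libraries were within 513, 519 and 536 CPM. They were followed by 307, 396 and 364 CPM at 6 h and 383, 389 and 410 CPM at 12 h, and then by 559 and 720.4 CPM at 24 h. The libraries of 6 and 12 h lay below all normoxic ones and both 24 h libraries lay above them. Log2 fold changes were -0.55 (SE 0.15, adjusted p = 0.00838) at 6 h, -0.41 (SE 0.15, adjusted p = 0.0390) at 12 h and 0.29 (SE 0.17, adjusted p = 0.149) at 24 h. The rise from 12 to 24 h was 0.70 (SE 0.17, adjusted p = 0.00999) and that from 6 to 24 h 0.85 (SE 0.17, adjusted p = 0.00180), and both stayed called with any 1 library left out. With only the 2 groups in the fit the rise from 6 to 24 h was 0.81 (adjusted p = 0.0572). From 12 to 24 h a fit of its 2 groups alone gave 0.67 (adjusted p = 0.0962). Limma-voom with sample quality weights gave 0.66 for this step (adjusted p = 0.113). The 12 h call was lost without any one of the normoxic or 12 h libraries (adjusted p = 0.0753 to 0.102). Without 24 h replicate 1 the 24 h value was 0.41 (adjusted p = 0.0306) and without 24 h replicate 2 it was 0.08 (adjusted p = 0.690). Scaled by library size alone, the 24 h value turned to -0.66 (adjusted p = 0.00467) where the median of all genes was -0.97, and the rises after 12 and 6 h were 0.21 and 0.21 (adjusted p = 0.358 and 0.326).

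SLC7A6 (ENSG00000103064, chr16:68264516-68301823, plus strand) encodes y+LAT2, which joins SLC3A2 and exchanges arginine for glutamine and other neutral amino acids. It was low in normoxia, with 17.0, 16.2 and 17.6 CPM, and reached 45.4, 45.8 and 29.3 CPM at 6 h. At 12 h 24.7, 29.8 and 31.1 CPM were measured, and at 24 h 19.7 and 14.1 CPM. All libraries of 6 and 12 h were above normoxia, and those of 24 h lay on both sides of it. The transcript rose 2.37-fold at 6 h (log2 fold change 1.25, SE 0.19, adjusted p = 0.000172) and 1.69-fold at 12 h (0.76, SE 0.19, adjusted p = 0.00540), and its log2 fold change at 24 h was 0.0024 (SE 0.21, adjusted p = 0.993). From 6 to 24 h it fell by 1.25 on the log2 scale (SE 0.22, adjusted p = 0.000944) and from 12 to 24 h by 0.75 (SE 0.22, adjusted p = 0.0222). This last call was lost when 12 h replicate 2 (adjusted p = 0.0622) or 3 (0.0734) was left out, or the second 24 h library (0.119). The fall from 12 to 24 h was also not called in limma-voom with sample quality weights (adjusted p = 0.205). With only the 2 groups in the fit it was not called either (adjusted p = 0.0839). With library size alone SLC7A6 stood at 0.29 (adjusted p = 0.368) at 12 h and was lower at 24 h (-0.86, adjusted p = 0.0226), or 0.79 and 0.11 above the median of all genes. Of its exonic bases 44.4% overlap SLC7A6OS and 11.1% overlap ENSG00000279649, both on the other strand, and the strand setting of the counting is not given in the sources used here. SLC7A6OS had 94 to 229 counts and was called at none of the 3 times (log2 fold changes 0.26, 0.26 and 0.25). ENSG00000279649 had at most 38 counts and was at 0.04 (not called), -0.86 and -1.71. Reads of SLC7A6 and of these genes cannot be told apart without that setting.

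The promoter of SLC7A6 is printed beside that of SLC7A5 because both exchangers pair with SLC3A2 and moved in opposite directions at 6 and 12 h. The same letters are in capitals (chr16:68264276-68264525).
SLC7A6: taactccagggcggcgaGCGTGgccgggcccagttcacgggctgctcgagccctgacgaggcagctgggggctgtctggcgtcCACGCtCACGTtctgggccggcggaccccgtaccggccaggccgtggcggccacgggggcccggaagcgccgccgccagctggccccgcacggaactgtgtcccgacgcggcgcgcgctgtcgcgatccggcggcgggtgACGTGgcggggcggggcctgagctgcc
ACGTG begins 27 bases before the start on the gene's strand and 161 bases before it on the other.

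The ratios between the partners changed as well. Ratios of levels per kb of exonic length within a library need no scaling between libraries. The normoxic libraries held 4.41 to 5.22 times as much SLC7A5 as SLC3A2. After 6 h the ratio was 3.86 to 4.93, after 12 h 2.03 to 3.09, and after 24 h 1.07 to 1.35. The ranges of 12 and 24 h did not overlap normoxia, and that of 6 h did. Exact two-sided permutation tests against 0 h gave p = 0.2 at 6 h and p = 0.1 at 12 h and at 24 h, where 0.1 is the smallest value these designs allow. SLC7A6 was at 0.0262 to 0.0279 of SLC3A2 in normoxia and, in order of time, at 0.0678 to 0.125, 0.0544 to 0.0644 and 0.0165 to 0.0297 in hypoxia. Between the exchangers, SLC7A5 went from a mean of 179 times SLC7A6 in normoxia to 46.6, 43.6 and 55.1 times. The absolute ratio with SLC3A2 depends on the length taken, since the merged exons of its 41 transcripts span 6.392 kb and its MANE transcript 1.885 kb. The changes of a ratio over time do not depend on it.

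**Figure D2:**
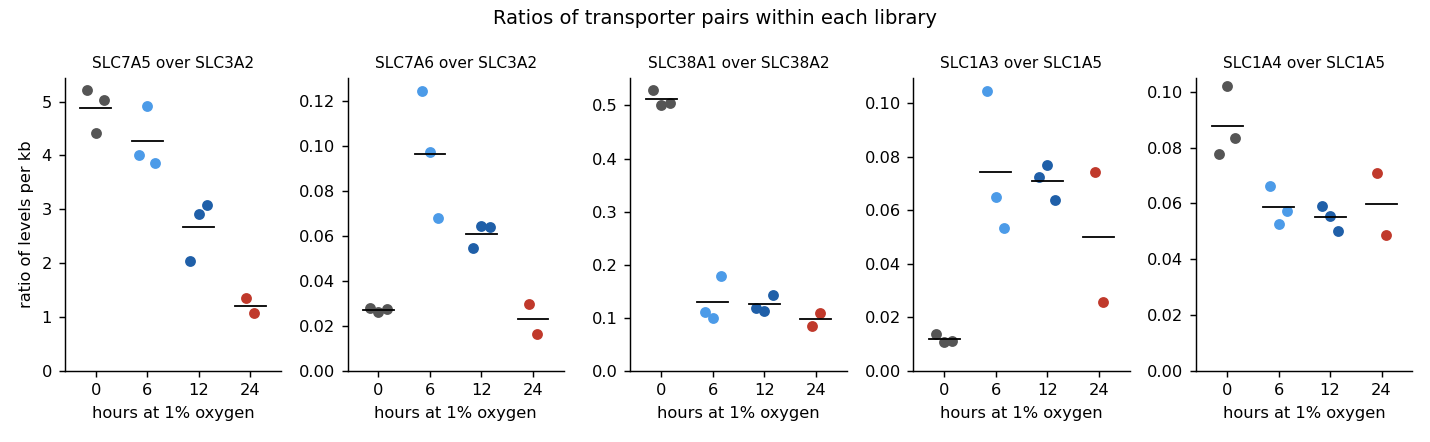
Ratio of levels per kb for 5 pairs of carriers (y axes, from 0) in each library, by hours at 1% oxygen, with black lines at the group means. SLC7A5 over SLC3A2 went from a mean of 4.89 to 1.21, and SLC38A1 over SLC38A2 from 0.511 to 0.0969.

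SLC7A1 (ENSG00000139514, chr13:29509414-29595688, minus strand) encodes CAT1, the main uptake route for arginine and lysine in many cell types. In normoxia it was at 249.7, 232 and 262 CPM and at 6 h at 244, 263 and 162 CPM. At 12 h 135, 203 and 182 CPM were found, and at 24 h 105 and 75.6 CPM. The libraries of 6 h overlapped normoxia, those of 12 h lay below it and those of 24 h were lower still. Its log2 fold changes were -0.16 (SE 0.21, adjusted p = 0.550), -0.52 (SE 0.21, adjusted p = 0.0543) and -1.45 (SE 0.25, adjusted p = 0.000271), so that SLC7A1 fell at 24 h to 0.365 of its normoxic level (-1.77 and -1.25 without 24 h replicates 1 and 2, called in both cases). It fell by 1.30 on the log2 scale between 6 and 24 h (SE 0.24, adjusted p = 0.00133) and by 0.94 between 12 and 24 h (SE 0.24, adjusted p = 0.0136). The latter was not called without 12 h replicate 2 (adjusted p = 0.0512) or 24 h replicate 2 (0.0738). The 12 to 24 h fall was also not called in limma-voom with sample quality weights (adjusted p = 0.0830). With only the 2 groups in the fit it was not called either (adjusted p = 0.0773). Against 0 h, the 12 h value passed in 12 of 20 alternatives. Among them were limma-voom (adjusted p = 0.0477), DESeq2 (0.0389) and fits with 1 of 4 libraries left out. These were the second 12 h library (0.0364), the last 6 h library (0.0314) and either 24 h library (0.0174 and 0.0219). Relative to SLC7A6, which carries the same cationic amino acids in exchange, SLC7A1 went from a mean ratio of 14.5 in normoxia to 5.47, 5.96 and 5.29.

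SLC38A2 (ENSG00000134294, chr12:46358188-46372773, minus strand) encodes SNAT2, a sodium-coupled carrier of glutamine, alanine and other small neutral amino acids. It stood at 573, 602 and 622 CPM in normoxia and at 1901, 2037 and 1375 CPM after 6 h. At 12 h it was at 1896, 1624 and 1352 CPM, and at 24 h at 2341 and 955 CPM. Every hypoxic library was above every normoxic one, and the 24 h pair was the most spread of all. SLC38A2 rose by 1.56 (SE 0.29, adjusted p = 0.000666), 1.44 (SE 0.29, adjusted p = 0.00135) and 1.46 (SE 0.31, adjusted p = 0.00143) on the log2 scale, or 2.96-, 2.71- and 2.75-fold. Differences between the hypoxic times were -0.12, 0.02 and -0.10 for 12 against 6, 24 against 12 and 24 against 6 h, with adjusted p = 0.844, 0.969 and 0.816. The comparisons with 24 h rest on which library is kept. Without 24 h replicate 1 SLC38A2 was lower at 24 h than at 12 h (-0.79, adjusted p = 0.0134) and 6 h (-0.92, adjusted p = 0.00522), and without 24 h replicate 2 the values were 0.51 and 0.40 (adjusted p = 0.114 and 0.163). Its 24 h value was 0.62 without 24 h replicate 1 (adjusted p = 0.0226) and 1.95 without 24 h replicate 2 (adjusted p = 6.5e-06), and 0.68 with library size alone (adjusted p = 0.146). The 250 bases before its start (chr12:46372774-46373023) are printed because they belong to the carrier with the highest mean level per kb in hypoxia and hold none of the 4 sets of letters.
SLC38A2: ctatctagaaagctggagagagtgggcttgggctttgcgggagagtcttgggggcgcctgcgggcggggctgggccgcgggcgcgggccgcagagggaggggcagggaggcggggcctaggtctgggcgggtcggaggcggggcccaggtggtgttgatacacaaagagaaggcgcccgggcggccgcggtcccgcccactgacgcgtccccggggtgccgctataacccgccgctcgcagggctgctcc

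SLC38A1 (ENSG00000111371, chr12:46183063-46270017, minus strand) encodes SNAT1, the close relative of SLC38A2 next to it on chromosome 12, which also takes up glutamine. It went the other way. Normoxic libraries held 466, 464 and 483 CPM, and those of 6 h 322, 312 and 377 CPM. Then 348, 281 and 298 CPM were measured at 12 h, and 303 and 161 CPM at 24 h. No hypoxic library reached the normoxic range. Log2 fold changes were -0.48 (SE 0.20, adjusted p = 0.0606), -0.61 (SE 0.20, adjusted p = 0.0240) and -1.02 (SE 0.23, adjusted p = 0.00231). The 6 h value missed the threshold and passed in 8 of 20 alternatives, among them DESeq2 (adjusted p = 0.0426). It was -0.51 without 24 h replicate 1 and -0.50 without 24 h replicate 2. The 12 h call was lost without any one of the normoxic libraries or without 12 h replicate 2 or 3 (adjusted p = 0.0528 to 0.0749). At 24 h the value was -1.60 without replicate 1 and -0.66 without replicate 2, and called in both cases. SLC38A1 was not called between hypoxic times (-0.13, -0.41 and -0.54, adjusted p = 0.775, 0.193 and 0.0771). The fall from 6 to 24 h was, however, called in limma-voom (-0.60, adjusted p = 0.0459) and without a low count filter (-0.61, adjusted p = 0.0204). It was also called with library size alone (-1.04, adjusted p = 0.0256), where the median of all genes was -0.59. Without 24 h replicate 1 the 24 h values were -0.97 against 12 h and -1.10 against 6 h. SLC38A1 over SLC38A2, per kb, was 0.501 to 0.529 in normoxia and 0.0996 to 0.178, 0.112 to 0.143 and 0.0841 to 0.1097 at 6, 12 and 24 h (exact permutation p = 0.1 each, the smallest possible).

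SLC1A3 (ENSG00000079215, chr5:36596588-36688334, plus strand) encodes EAAT1 or GLAST, a sodium-coupled carrier of glutamate and aspartate best known from astrocytes. It had the largest fold change of the 9. From 20.6, 14.3 and 17.3 CPM in normoxia it went to 111, 98.5 and 78.0 CPM at 6 h and 101, 99.9 and 94.3 CPM at 12 h. The 24 h libraries were at 96.4 and 39.6 CPM, and all hypoxic libraries lay above all normoxic ones. SLC1A3 rose 5.50-fold at 6 h (log2 fold change 2.46, SE 0.27, adjusted p = 1.7e-05), 5.65-fold at 12 h (2.50, SE 0.27, adjusted p = 2.2e-05) and 3.91-fold at 24 h (1.97, SE 0.29, adjusted p = 9.8e-05). It remained called at 24 h without either library, at 1.13 without replicate 1 (adjusted p = 0.000268) and 2.45 without replicate 2 (adjusted p = 7.2e-07). The steps between hypoxic times were 0.04, -0.53 and -0.49 for 12 against 6, 24 against 12 and 24 against 6 h, with adjusted p = 0.956, 0.192 and 0.195. With no low count filter those to 24 h were called, at -0.62 from 12 h and -0.56 from 6 h (adjusted p = 0.0214 and 0.0331). Without 24 h replicate 1 the steps to 24 h were called, at -1.34 from 12 h (adjusted p = 0.000292) and -1.30 from 6 h (adjusted p = 0.000283). Leaving out 24 h replicate 2 instead gave -0.04 and 0.0094 (adjusted p = 0.904 and 0.976). The 250 bases before its MANE start (chr5:36606356-36606605) are shown as those of the carrier that rose most.
SLC1A3: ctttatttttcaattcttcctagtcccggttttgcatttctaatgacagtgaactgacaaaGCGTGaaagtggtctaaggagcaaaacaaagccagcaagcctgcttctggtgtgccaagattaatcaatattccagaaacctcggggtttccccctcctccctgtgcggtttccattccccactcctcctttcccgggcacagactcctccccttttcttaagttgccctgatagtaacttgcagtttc
They hold 1 GCGTG, 189 bases before the start. RefSeq lists 2 other starts for the gene, and the count table does not separate them.

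SLC1A4 (ENSG00000115902, chr2:64988477-65023865, plus strand) encodes ASCT1, an exchanger of serine, alanine, cysteine and threonine. Its libraries were at 38.5, 44.6 and 42.2 CPM in normoxia and at 23.0, 26.1 and 27.4 CPM at 6 h. They were at 26.9, 23.6 and 24.3 CPM at 12 h and at 30.0 and 24.4 CPM at 24 h. All hypoxic libraries lay between 23.0 and 30.0 CPM, below the lowest normoxic one. Its log2 fold changes of -0.71 (SE 0.14, adjusted p = 0.000864), -0.74 (SE 0.14, adjusted p = 0.000747) and -0.62 (SE 0.15, adjusted p = 0.00413) were all called, the last at -0.83 and -0.50 without 24 h replicates 1 and 2. It was at 0.611, 0.597 and 0.652 of its normoxic level, and the differences between hypoxic times were -0.03, 0.13 and 0.09 (adjusted p = 0.918, 0.561 and 0.652). Of the alternatives run, limma-voom with sample quality weights alone lost the 24 h call (-0.60, adjusted p = 0.102).

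SLC1A5 (ENSG00000105281, chr19:46774883-46788594, minus strand) encodes ASCT2, the exchanger through which many proliferating cells import glutamine. It was the only one of the 9 called in none of the 6 comparisons by edgeR with TMM scaling. Levels were 238, 209 and 242 CPM in normoxia and 167, 237 and 229 CPM at 6 h. Values of 219, 204 and 232 CPM followed at 12 h, and 203 and 241 CPM at 24 h. The ranges overlapped at every time. The log2 fold changes against 0 h were -0.12, -0.07 and -0.05, with 95% confidence intervals of -0.46 to 0.22, -0.42 to 0.27 and -0.43 to 0.33 and adjusted p = 0.532, 0.713 and 0.826. Changes of a size within these intervals remain compatible with the data for this gene. With library size alone it was called lower at 12 h (-0.54, adjusted p = 0.0198) and 24 h (-0.99, adjusted p = 0.000953), where the median of all genes was -0.50 and -0.97. Of its exonic bases 23.4% overlap the antisense gene ENSG00000275719, which had 1 to 28 counts. Per kb and within libraries, the other SLC1 carriers moved relative to it. SLC1A4 went from a mean of 0.0878 of SLC1A5 to 0.0588, 0.0550 and 0.0597, and SLC1A3 from 0.0119 to 0.0744, 0.0710 and 0.0501.

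**Figure D3:**
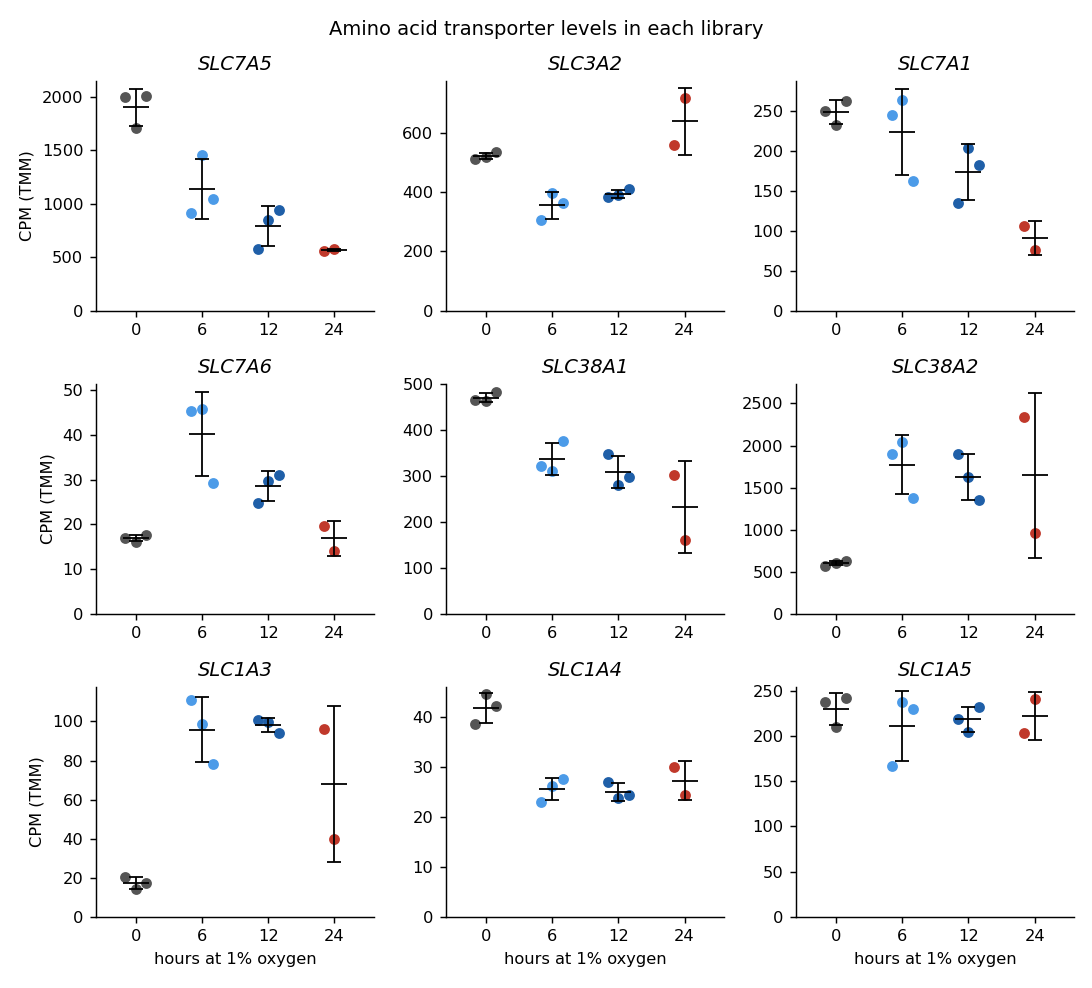
CPM of each carrier (y axes, from 0) in each library by hours at 1% oxygen, with the mean and 1 SD of each group in black, over 3 libraries, or 2 at 24 h. SLC38A2 was at 573 to 622 CPM in normoxia and 955 to 2341 CPM in hypoxia, and the ranges of SLC1A5 overlapped at all times.

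Set against each other, the carriers changed order. Per kb of exonic length, SLC7A5 led in normoxia with a mean of 400 CPM per kb (SD 35.8, n = 3), followed by SLC38A2 (92.0), SLC3A2 (81.8), SLC1A5 (69.0), SLC38A1 (47.0), SLC7A1 (32.3), SLC1A4 (6.02), SLC7A6 (2.23) and SLC1A3 (0.820). No neighbours in this order overlapped over the libraries. At 6 h SLC38A2 (272) stood first with SLC7A5 (239) overlapping it, and at 12 h (249.5 against 166) and 24 h (253 against 119) it was first without overlap. SLC1A3 was last in normoxia and seventh at 12 h (4.63), above SLC7A6 (3.76) and SLC1A4 (3.59), which overlapped each other. SLC1A5 and SLC3A2 overlapped at 6 and 12 h, and at 24 h SLC3A2 (100.1) was above SLC1A5 (66.7). With MANE transcript lengths, chosen after seeing the data, SLC3A2 moved to the second place in normoxia and SLC1A3 to the eighth. The hypoxic order changed as well. SLC38A2 kept the highest mean, but SLC3A2 stood above SLC7A5 at 12 h (209 against 173 CPM per kb) and at 24 h (339 against 125), where it overlapped SLC38A2 (344).

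**Figure D4:**
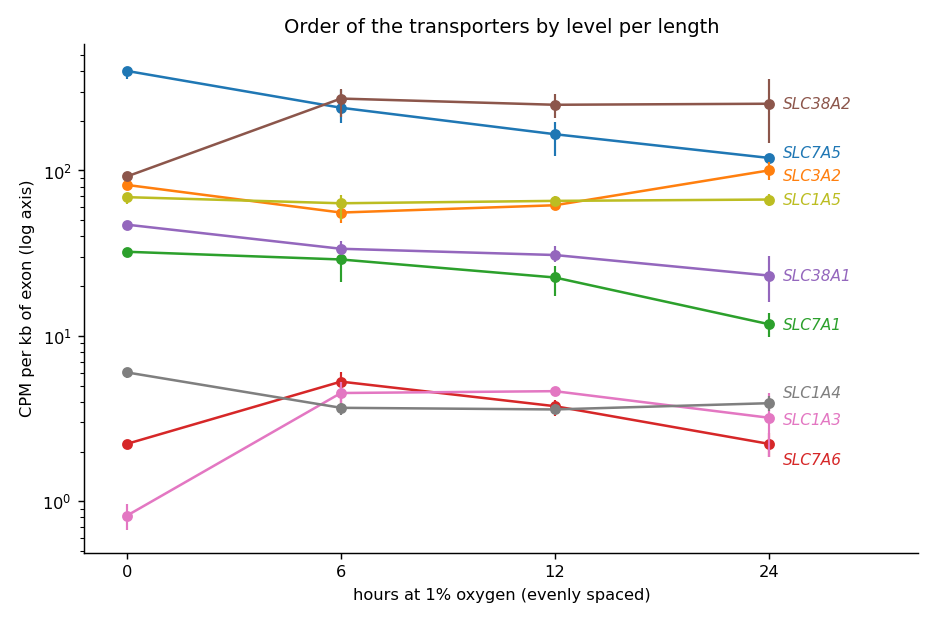
Mean CPM per kb of exon (log axis) of each carrier at 0, 6, 12 and 24 h, with lines from the lowest to the highest library. SLC38A2 and SLC7A5 exchange first place, at 92.0 and 400 CPM per kb in normoxia and 253 and 119 at 24 h.

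Between the hypoxic times themselves, 0 of the 9 carriers were called for 12 against 6 h by edgeR, where 4.95% of all genes were (1.88% higher and 3.07% lower), and 0 had libraries that did not overlap, against 31.6% of all genes. At an unadjusted p under 0.05 edgeR's fit across all genes gave 2, SLC7A5 and SLC7A6, named after their values were seen. DESeq2 and limma-voom called 0, and limma-voom with sample quality weights called 1, SLC7A6 (adjusted p = 0.0167). For 24 against 12 h 3 were called, SLC3A2 higher and SLC7A1 and SLC7A6 lower, with 28.4% of all genes called (15.1% higher and 13.3% lower). Libraries did not overlap for 4 carriers, against 49.2% of all genes. For 24 against 6 h 4 were called, SLC3A2 higher and SLC7A5, SLC7A1 and SLC7A6 lower, with 42.4% of all genes called (22.1% higher and 20.3% lower). Libraries did not overlap for 5 carriers, against 53.3% of all genes. Without 24 h replicate 1 the counts were 6 and 7, and without 24 h replicate 2 or 12 h replicate 2 the first was 1. In these comparisons SLC3A2 and its partner SLC7A6 moved in opposite directions.

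Over the 11 libraries, the log2 CPM of SLC38A2 and SLC1A3 had a Pearson r of 0.958, the closest pair of the 9, and SLC7A6 and SLC3A2 had -0.878, the most opposed save SLC1A3 and SLC1A4 at -0.885. These are descriptions over libraries that share time points, depth and scaling. Among 9024 genes with a symbol and at least 10 CPM, the profiles most like those of the carriers were TBC1D16 (r = 0.976) and PLCD3 (0.975) for SLC7A5, and SNHG11 (0.981) and MMAB (0.951) for SLC3A2. For the cationic carriers they were NDST1 (0.993) and DGCR8 (0.990) for SLC7A1, and RPL7L1 (0.988) and NSUN2 (0.986) for SLC7A6. SLC38A1 was most like TCEA1P2 (0.986) and RALGPS1 (0.979), and SLC38A2 most like NUMB (0.985) and UBAP1 (0.985). In the SLC1 family, EIF4EP2 (0.991) and LSG1 (0.989) were closest to SLC1A3, CCNL2 (0.981) and RBM10 (0.977) to SLC1A4, and SHISA5 (0.898) and PWWP2B (0.838) to SLC1A5.

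Of 29 other amino acid carriers, 18 passed the filter. At 6 h 9 rose and 4 fell, at 12 h 7 and 2, and at 24 h 7 and 5. Of all genes tested, 25.1%, 24.2% and 29.9% rose and 27.7%, 27.1% and 31.3% fell. With library size alone the splits of these carriers were 5 and 4, 4 and 3, and 3 and 8, so that the balance of directions depends on the scaling. Among those with a mean of at least 1 CPM, SLC7A11, the cystine and glutamate exchanger that is another partner of SLC3A2, had the largest change, with log2 fold changes of -2.39, -3.02 and -3.36. The glutamine carrier SLC38A3, at a mean of only 0.229 CPM and named after its values were seen, was called higher at all 3 times. Its log2 fold changes were 5.09, 4.46 and 4.49, from a normoxic level far below this mean. SLC38A3 thus passed the filter on low counts through hypoxic libraries alone and could not have been called lower. SLC7A7, a further partner of SLC3A2 at a mean of only 1.03 CPM, rose by 1.08, 1.05 and 1.78. The taurine carrier SLC6A6 rose by 2.22, 1.99 and 1.44, and the cationic amino acid carrier SLC7A2 by 1.63, 1.52 and 1.68. SLC36A4, a carrier of proline and tryptophan, rose by 1.62, 1.26 and 1.87, and the glutamine carrier SLC38A5 by 1.07, 0.66 and 1.56. The glycine carrier SLC6A9 fell at all 3 times (-0.44, -0.59 and -1.51), and SLC38A7 at 6 h (-0.47) and 24 h (-1.01), with -0.26 at 12 h not called. The SLC3A2 partners did not share a direction. SLC7A5 and SLC7A11 fell at all 3 times, SLC7A7 rose at all 3, and SLC7A6 rose at 6 and 12 h. SLC7A8, or LAT2, a partner outside the rule for named genes and added after its values were seen, was at -0.05 and -0.06 at 6 and 12 h (not called) and fell at 24 h (-0.86, adjusted p = 0.00481).

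Enzymes that make or use the carried amino acids were counted in the same way. Of all genes tested, 25.1%, 24.2% and 29.9% rose and 27.7%, 27.1% and 31.3% fell at 6, 12 and 24 h. Of 22 enzymes of glutamine, glutamate, aspartate, asparagine and proline, 8, 9 and 10 rose and 5, 6 and 8 fell at 6, 12 and 24 h (4, 2 and 3 against 10, 10 and 12 with library size alone). GLUL, which makes glutamine from glutamate, rose by 1.78, 1.64 and 1.91. PRODH, which starts the breakdown of proline, fell (-3.07, -2.33 and -2.55). Among enzymes of branched-chain, aromatic and cationic amino acids 12 of 19 were tested, of which 5, 5 and 6 rose and 2, 3 and 3 fell (5, 3 and 2 against 4, 4 and 6 with library size alone). The 4 with the largest changes all act on arginine, ornithine or the polyamines made from them. ARG2 (arginase) rose by 1.18, 1.22 and 1.22, ODC1 (ornithine decarboxylase) by 1.31, 0.97 and 1.28, SRM (spermidine synthase) by 1.22, 1.09 and 1.57 and SMS (spermine synthase) by 1.09, 1.26 and 1.84.

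Of 24 genes of lysosomal amino acid transport and mTORC1 amino acid sensing, 21 were tested, of which 3, 5 and 6 rose and 4, 5 and 3 fell (2, 0 and 3 against 7, 12 and 13 with library size alone). For this list and the next, the shares over all genes tested were 25.1%, 24.2% and 29.9% higher and 27.7%, 27.1% and 31.3% lower. The Ragulator subunits LAMTOR5 and LAMTOR4 reached 1.94 and 2.05 at 24 h, and the arginine sensor relative CASTOR2 rose by 1.94 at 6 h and 0.79 at 12 h. Of 27 regulators and targets of the amino acid response, 26 were tested, of which 5, 6 and 8 rose and 12, 12 and 11 fell. With library size alone the splits were 4 and 15, 2 and 13, and 2 and 16. DDIT3, which encodes CHOP, fell at all 3 times (-5.85, -3.03 and -2.73). CHAC1, which degrades glutathione, fell too (-3.14, -2.77 and -3.24), as did SESN2, a leucine sensor counted in both lists (-1.79, -2.06 and -2.11). DDIT4, an inhibitor of mTORC1 known to respond to hypoxia, rose by 1.25, 1.70 and 1.59. The ATF4 transcript itself, named after its values were seen, was at -0.34 (adjusted p = 0.0628), 0.08 (adjusted p = 0.677) and 0.79 (adjusted p = 0.00100). 

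**Figure D5:**
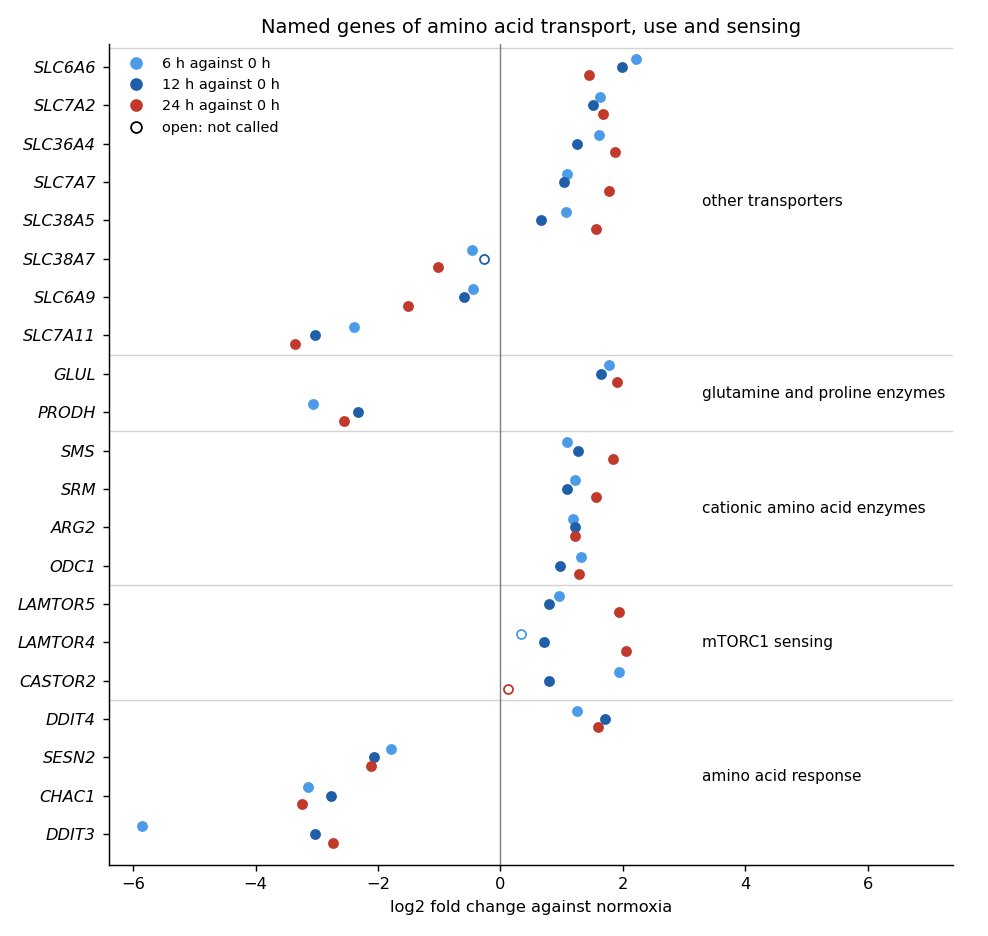
Log2 fold change against normoxia (x axis) of the named genes of 5 lists at 6, 12 and 24 h. Filled points passed the adjusted threshold. SLC7A11, PRODH and DDIT3 lie far to the left, at -2.39, -3.07 and -5.85 at 6 h, and SLC6A6 is at 2.22.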

How the data were processed

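Per the labels and the study's methods, total RNA longer than 200 bases was made into stranded libraries and read for 75 cycles. The authors aligned reads with STAR to hg38 and counted them per gene with featureCounts (Trimmomatic and FastQC before), and deposited raw counts for 60676 genes. The strand and multimapping settings of the counting are not given in the sources used here. All 11 columns were matched to a library by time and replicate.

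Genes were filtered with filterByExpr (minimum count 10, minimum total 15), scaled by TMM and tested with edgeR 4.0.16 (glmQLFit and glmQLFTest, R 4.3.3) over all 11 libraries and 19981 genes, with Benjamini-Hochberg adjustment. log2 CPM used a prior count of 2. Alternatives used limma 3.58.1, DESeq2 1.42.0, other scalings, filters, blocks and leave-one-out fits. Positions are from GENCODE on GRCh38 and promoters from RefSeq. Permutation tests were exact and two-sided, on log2 ratios for pairs and on log2 CPM after TMM scaling for single carriers.

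The members and lists were chosen with earlier results of these data known. Named from each list were the 4 genes (8 for other carriers) with the largest mean change over the 3 comparisons with 0 h among those with a mean of at least 1 CPM and called in at least 1 of them, and for each member the 2 genes of most similar profile (at least 10 CPM). In simulated counts for 6, 12 and 24 h against 0 h, 100 of 19981 genes had a log2 fold of 1 and 100 of 2, up or down. All others were unchanged, whereas 52.8%, 51.2% and 61.2% of genes were called in the data. There edgeR recovered 55, 51 and 33 of 100 genes with a log2 fold of 1, and 89, 87 and 75 of 100 with 2. False calls numbered 14, 5 and 4. The changed genes were drawn at any level of expression, so these rates do not describe the carriers in the real comparisons. Some list genes that this rule picks are not reported here.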

Additional observations from a re-analysis of the deposited data

Results flagged for a closer look

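In 7 cases the change against normoxia differed between hypoxic times by edgeR's quasi-likelihood test of the difference itself (adjusted p under 0.05 over all genes). From 12 to 24 h SLC3A2 differed by 0.70 on the log2 scale, SLC7A1 by -0.94 and SLC7A6 by -0.75. From 6 to 24 h SLC3A2 differed by 0.85, SLC7A5 by -1.01, SLC7A1 by -1.30 and SLC7A6 by -1.25. The libraries of the times compared did not overlap in any of these 7. With 3 libraries against 2, an exact permutation test of log2 CPM cannot go below p = 0.1, which each of them reached. The 24 h replicate 2 library, with the lowest TMM factor (0.539), enters all of them, and its part in the differences was not tested beyond leaving it out. Among the 6 to 24 h differences, that of SLC7A5 was not called in limma-voom with sample quality weights (adjusted p = 0.0679) and that of SLC3A2 was not called with only the 2 groups in the fit (adjusted p = 0.0572) or with library size alone (0.326). None of the 12 to 24 h differences was called in limma-voom with sample quality weights (adjusted p = 0.0830 to 0.205). Nor was any of them with only the 2 groups in the fit (adjusted p = 0.0773 to 0.0962). With library size alone that of SLC3A2 was not called either (adjusted p = 0.358).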

How the results depend on the processing

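Of 1080 log2 fold changes recomputed under alternatives, 965 kept their direction and side of the threshold, 32 lost the call, 37 gained one and 46 changed sign. The cause was not tested. For 12 against 6 h limma-voom with sample quality weights called 1 carrier in place of 0. For 24 against 12 h it called 0 in place of 3, as did a fit of only the 2 groups compared. Leaving out 1 library gave 5 to 7 calls for 6 h, 5 to 8 for 12 h and 6 to 7 for 24 h against normoxia, 0 to 1 for 12 against 6 h, 1 to 6 for 24 against 12 h and 4 to 7 for 24 against 6 h. The 6 and 7 were without 24 h replicate 1.

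Signs changed as follows (log2). Under limma-voom SLC7A6 at 24 h was -0.0078 and SLC38A2 for 24 against 12 h -0.12. With sample quality weights SLC7A6 at 24 h was -0.016, SLC1A3 for 12 against 6 h -0.011 and SLC1A5 for 24 against 12 h -0.010. With library size alone SLC3A2 and SLC7A6 at 24 h were -0.66 and -0.86. For 12 against 6 h it gave SLC3A2 -0.00092, SLC1A3 -0.11 and SLC1A5 -0.10, for 24 against 12 h SLC38A2 -0.29, SLC1A4 -0.29 and SLC1A5 -0.44, and for 24 against 6 h SLC1A4 -0.47 and SLC1A5 -0.55. Without a filter SLC7A6 at 24 h was -0.11, SLC38A2 and SLC1A5 for 24 against 12 h -0.061 and -0.069, and SLC1A5 for 24 against 6 h -0.0040. With at least 10 counts in every library SLC7A6 at 24 h was -0.14, and SLC38A2 and SLC1A5 for 24 against 12 h -0.011 and -0.018. With only the 2 groups compared SLC1A5 for 24 against 12 h was -0.0048.

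Leaving out 1 library gave these ranges across 0. Against 0 h they were -0.29 to 0.034 for SLC7A1 and -0.21 to 0.025 for SLC1A5 at 6 h, and -0.32 to 0.20 for SLC7A6 and -0.20 to 0.014 for SLC1A5 at 24 h. For 12 against 6 h they were -0.092 to 0.16 for SLC1A3, -0.10 to 0.022 for SLC1A4 and -0.098 to 0.14 for SLC1A5. For 24 against 12 h they were -0.79 to 0.51 for SLC38A2, -0.058 to 0.25 for SLC1A4 and -0.11 to 0.12 for SLC1A5. For 24 against 6 h they were -0.92 to 0.40 for SLC38A2, -1.30 to 0.0094 for SLC1A3, -0.097 to 0.23 for SLC1A4 and -0.072 to 0.16 for SLC1A5.

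Same-numbered libraries did not deviate together (correlations of -0.156 to 0.207, over 0.1 in 2 of 15 pairs), so the numbers were not taken to pair them. With the replicate block the counts were 6, 6, 6, 0, 3 and 4 over the 6 comparisons, SLC7A6 at 24 h was -0.040 and SLC38A2 for 24 against 12 h -0.12. It lost SLC3A2 at 12 h (adjusted p = 0.0514) and changed no other call of the 9 carriers.

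Limits are the 2 libraries at 24 h, which differ strongly, the HEPES given with low oxygen, and antisense overlap at SLC7A6 and SLC1A5.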
